A study of Mus musculus with 16 samples.

Results

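The cytosolic ribosomal protein genes were followed through RNA of mouse striatum, in ribosome-bound RNA and in bulk RNA. They were the protein-coding genes whose mouse symbol is Rpl or Rps followed by a number and at most one letter a, x or y, together with Rplp0, Rplp1, Rplp2 and Rpsa. Rpl22 was left out, because a tagged copy of it was the bait of the pull-down. This gave 75 genes of the 48795 gene identifiers counted, 30 of the small (40S) and 45 of the large (60S) subunit, and all 75 passed the filter on low counts, which kept 20645 genes. The smallest count of any of them in any library was 11.

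The study asked what loss of Crym, the gene of the thyroid hormone-binding protein μ-crystallin, does to striatal astrocytes. All 8 mice were of the CAG-Cas9-EGFP strain, with Cas9 and EGFP driven by the ubiquitous CAG promoter. At 6 to 8 weeks of age each received into the striatum of both sides AAV2/5-GfaABC1D-Rpl22-HA, a virus that uses an astrocyte promoter to express the ribosomal protein Rpl22 with an HA tag, and a second AAV2/5 virus with guide RNAs and an astrocytic mCherry reporter. The guides were 3 against Crym in the 4 Crym KO mice, or 1 against GFP in the 4 Control mice, labelled wild type, so that Control mice also carried Cas9, cutting guides and the tagged ribosomal protein. Tissue was taken at 10 to 12 weeks. From each mouse, RNA was pulled down with an antibody against HA (IP, ribosome-bound RNA rich in astrocyte RNA), and 20% of the same lysate gave bulk RNA (Input), which made 16 RNA-seq libraries in 4 groups of 4. The guides came from the ubiquitous U6 promoter, so that editing was limited to injected tissue and not, by construction, to astrocytes. The pull-down in turn reported on cells that took up the virus and made the tag.

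Ribosomal proteins assemble with ribosomal RNA into the 40S subunit, which holds the mRNA and reads its codons, and the 60S subunit, which joins amino acids. Cells need them in near-equal numbers, yet each is made from its own gene, and processed pseudogenes of nearly every one lie scattered over the mammalian genome. Their mRNAs are short and typically begin with a C followed by a run of pyrimidines, the 5′ terminal oligopyrimidine (TOP) motif. Through it growth signalling by mTORC1 and the La-related protein LARP1 moves these mRNAs between translating ribosomes and untranslated particles, and a pull-down of ribosomes does not collect mRNA that is free of ribosomes.

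The annotated starts of 55 of the 75 genes were found in the RefSeq table of GRCm38.p6. On the coding strand, a C followed by at least 4 further C or T bases began within 3 bases of the annotated start in 23 of these 55 (41.8%), and in 13.5% of all 27025 symbols in that table. The following 6 starts are shown because their genes span the results given further on, from Rpl15 and Rpl7a at the upper end over Rps6 and Rplp2 in the middle to Rpl12 and Rps27 at the lower end. Each runs from 10 bases before to 20 bases after the start, 5′ to 3′, with capitals from the C found near the start to the end of its pyrimidine run; further pyrimidines can stand directly before it.
Rpl15: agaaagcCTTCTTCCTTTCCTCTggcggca
Rpl7a: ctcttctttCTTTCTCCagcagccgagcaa
Rps6: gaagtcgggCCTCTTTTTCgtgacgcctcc
Rplp2: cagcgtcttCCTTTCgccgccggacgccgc
Rpl12: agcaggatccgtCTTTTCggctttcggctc
Rps27: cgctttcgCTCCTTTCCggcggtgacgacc
Rpl15 lies at chr14:18270967-18270996 (minus strand), Rpl7a at chr2:26910797-26910826 (plus), Rps6 at chr4:86857348-86857377 (minus), Rplp2 at chr7:141447641-141447670 (plus), Rpl12 at chr2:32961702-32961731 (plus) and Rps27 at chr3:90213629-90213658 (minus). A match describes these letters only. A gene without one may start elsewhere than its annotation says.

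Libraries held 39421209 to 62596661 counts and detected 24487 to 27280 genes. The targeted gene went with its label: Crym averaged 64.6 ± 11.95 CPM (counts scaled to a library total that is the same for all, with TMM factors) in Crym KO IP and 187 ± 43.8 CPM in Control IP (SD, n = 4 each). Rpl22, the bait, averaged 628 ± 103 CPM in Crym KO IP and 327 ± 31.6 CPM in Control IP (limma adjusted p = 0.00367). Since the tagged copy can add to its counts, they do not stand for those of the other ribosomal protein genes. Of 20 astrocyte markers, 20 were higher in IP than in Input in both genotypes (median log2 fold change 2.172 in Crym KO and 2.00 in Control mice). All 12 microglial markers were lower (-4.96 and -4.80), as were 9 of 10 endothelial ones, while 10 of 12 markers of medium spiny neurons, the main striatal neurons, were higher (0.50 and 0.59), so IP was not astrocyte RNA alone. Counts from the mitochondrial genome were 0.104% to 0.157% of a library in IP and 5.15% to 6.62% in Input.

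The 75 genes together took few of the counts. Their summed share was 0.182% ± 0.00591 in Crym KO IP and 0.190% ± 0.00660 in Control IP, and 0.296% ± 0.0121 in Crym KO Input and 0.309% ± 0.0118 in Control Input (SD, n = 4 each). IP libraries held 0.176% to 0.190% in Crym KO mice and 0.186% to 0.1997% in Control mice, all below the lowest Input library (0.283%). Rpl4 alone gave 11.2% of all their counts, and Rpl4, Rps3, Rpl8, Rplp1 and Rps9 gave 35.4%. Only uniquely placed reads were counted. For the median gene 55.9% of the 69-base windows of its main transcript, the length of a read, were unique. Unique windows occurred in no annotated transcript of another gene, except genes that overlap it in the genome, which were not searched. The lowest percentage was 1.44%, in Rps27. A further 272 annotated pseudogenes bear the names of 57 of these genes, and took 0.0822% to 0.0928% of counts in IP and 0.122% to 0.144% in Input. The level of a gene and its difference between groups are therefore uncertain where its unique part is small.

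Levels, in CPM per kilobase (kb) of merged exon length, spanned 635-fold from the lowest to the highest gene in Crym KO IP and 680-fold in Control IP. Rplp1, one of the acidic proteins of the P stalk that recruits elongation factors, was highest in all 4 groups, with means of 154 in Crym KO IP (148 to 161 over the 4 libraries), 154 in Control IP (147 to 158), 378 in Crym KO Input (348 to 405) and 383 in Control Input (368 to 400.3). In Control IP it was followed by Rpl4 (130 ± 1.58), Rpl8 (112 ± 3.76) and Rps15 (84.0 ± 5.88), and no library of one of these 4 genes overlapped with those of the next in the order. From Rpl41 (50.4 ± 4.23) downwards most neighbours overlapped. The order depends on the length used: per kb of coding sequence Rpl41 was first in all 4 groups (412 in Crym KO IP, 427 in Control IP, 681 in Crym KO Input and 735 in Control Input) and Rplp1 had 225, 225, 551 and 559 in the same groups. At the other end, per kb of merged exon length, stood Rps16 (0.226 ± 0.0556 in Control IP), Rps13 (0.302 ± 0.0346), Rpl10a (0.478 ± 0.0949), Rps29 (0.493 ± 0.0825) and Rpl12 (0.513 ± 0.0883). In Crym KO IP the lowest was Rps13 (0.243 ± 0.0265), then Rps16 (0.313 ± 0.0593). This end also depends on the length: in Control IP Rpl12 had rank 71 per kb of merged exon length and rank 62 per kb of coding sequence. The median per kb of merged exon length was 5.32 in Crym KO IP, 5.60 in Control IP, 8.53 in Crym KO Input and 8.78 in Control Input. Across the 75 genes the level in Control Input went with the unique share of the transcript (r = 0.57, rho = 0.60). The 45 genes with at least 50% unique windows had a median of 34.9 CPM in Control Input, and the other 30 had 5.39 CPM, so that this order describes countable reads and need not be that of the mRNAs.

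**Figure D1:**
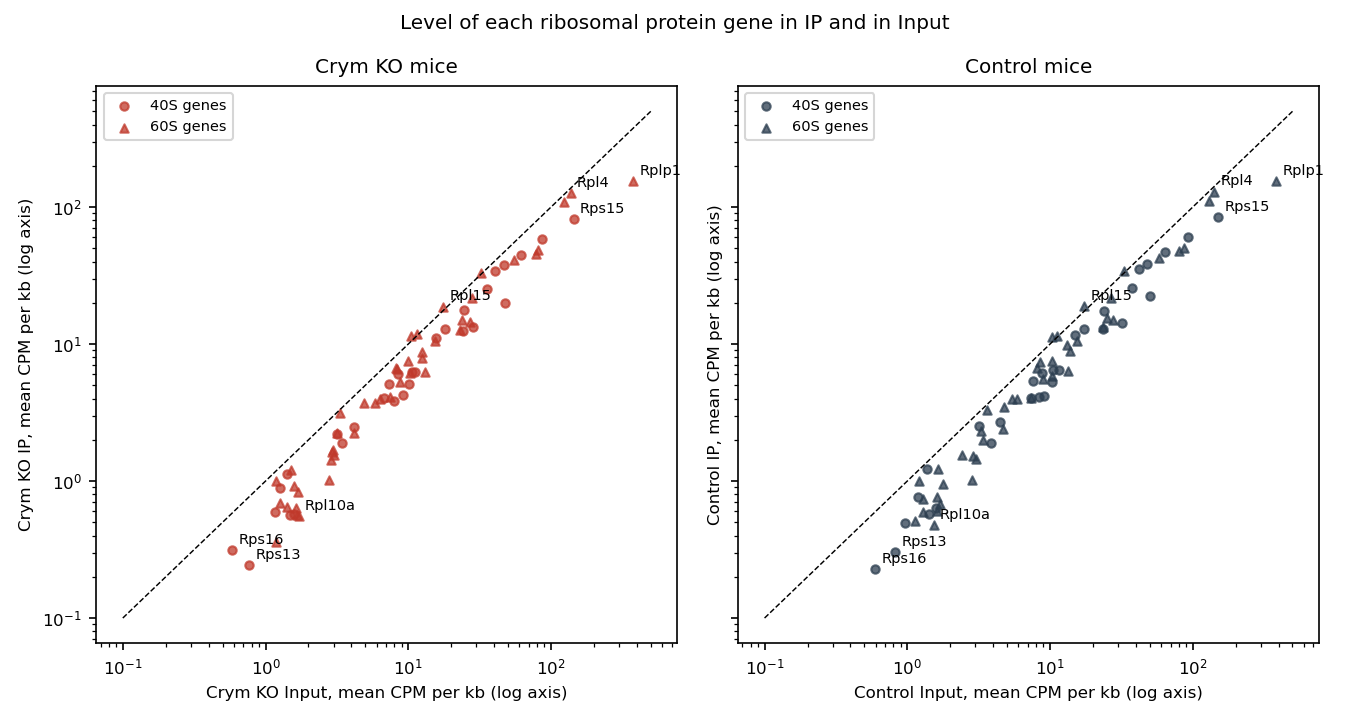
Mean level of each of the 75 genes in IP (vertical axis) and in Input (horizontal axis), in CPM per kb of merged exon length on log axes, in Crym KO mice (left) and Control mice (right). Circles are genes of the 40S and triangles genes of the 60S subunit, and the dashed line marks equal levels; nearly all points lie under it, with Rplp1 highest in both fractions.

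The first comparison asked which of these mRNAs were over- or under-represented on the tagged ribosomes. As a group they were lower in IP than in Input. In Crym KO mice 68 of the 75 were lower past the threshold (limma, adjusted p under 0.05), none was higher (of 20645 genes, 37.9% were lower and 36.2% higher) and 7 did not pass. In Control mice 69 were lower and 1 was higher (background 38.5% lower and 36.7% higher), and 5 did not pass. None of the 75 was higher in Crym KO mice by edgeR or DESeq2 either, while at an unadjusted p under 0.05 Rpl15 was. That p was reached in either direction by 69 of the 75 in Crym KO mice (75.8% of all genes) and by 70 in Control mice (76.8% of all genes). The median log2 fold change was -0.75 in Crym KO mice, against -0.019 over all genes, and -0.70 in Control mice, against -0.024 over all genes. Values ran from -1.70 to 0.13 and from -1.68 to 0.13. The IP and Input libraries did not overlap for 67 genes in Crym KO and 66 in Control mice, where this held for 68.0% and 67.2% of all genes. Between mice, bulk samples of this kind cannot tell fewer cells of a type from less RNA per cell. IP and Input of a mouse came from the same lysate, with Input holding RNA of all cells, bound to ribosomes or not. Differences between cell types and differences in ribosome binding therefore cannot be told apart in IP over Input.

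The difference was seen mouse by mouse. The median difference of IP and Input over the 75 genes, in log2(CPM + 0.1), was -0.68, -0.62, -0.76 and -0.63 in Crym KO mice 1 to 4. In Control mice 1 to 4 it was -0.59, -0.71, -0.70 and -0.82. In every mouse 70 to 74 of the 75 genes were lower in IP, and 69 genes were lower in all 8 mice. Both subunits took part: 29 of 30 genes of the 40S subunit were lower in each genotype (median -0.76 in Crym KO and -0.78 in Control mice), and 39 and 40 of 45 of the 60S subunit (-0.72 and -0.67). The fold changes of the 2 genotypes, from different mice, went together across genes (r = 0.96, rho = 0.96, n = 75), and 59 of the 75 differed by less than 0.1 on the log2 scale. These correlations describe genes that share libraries and depth within a genotype.

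**Figure D2:**
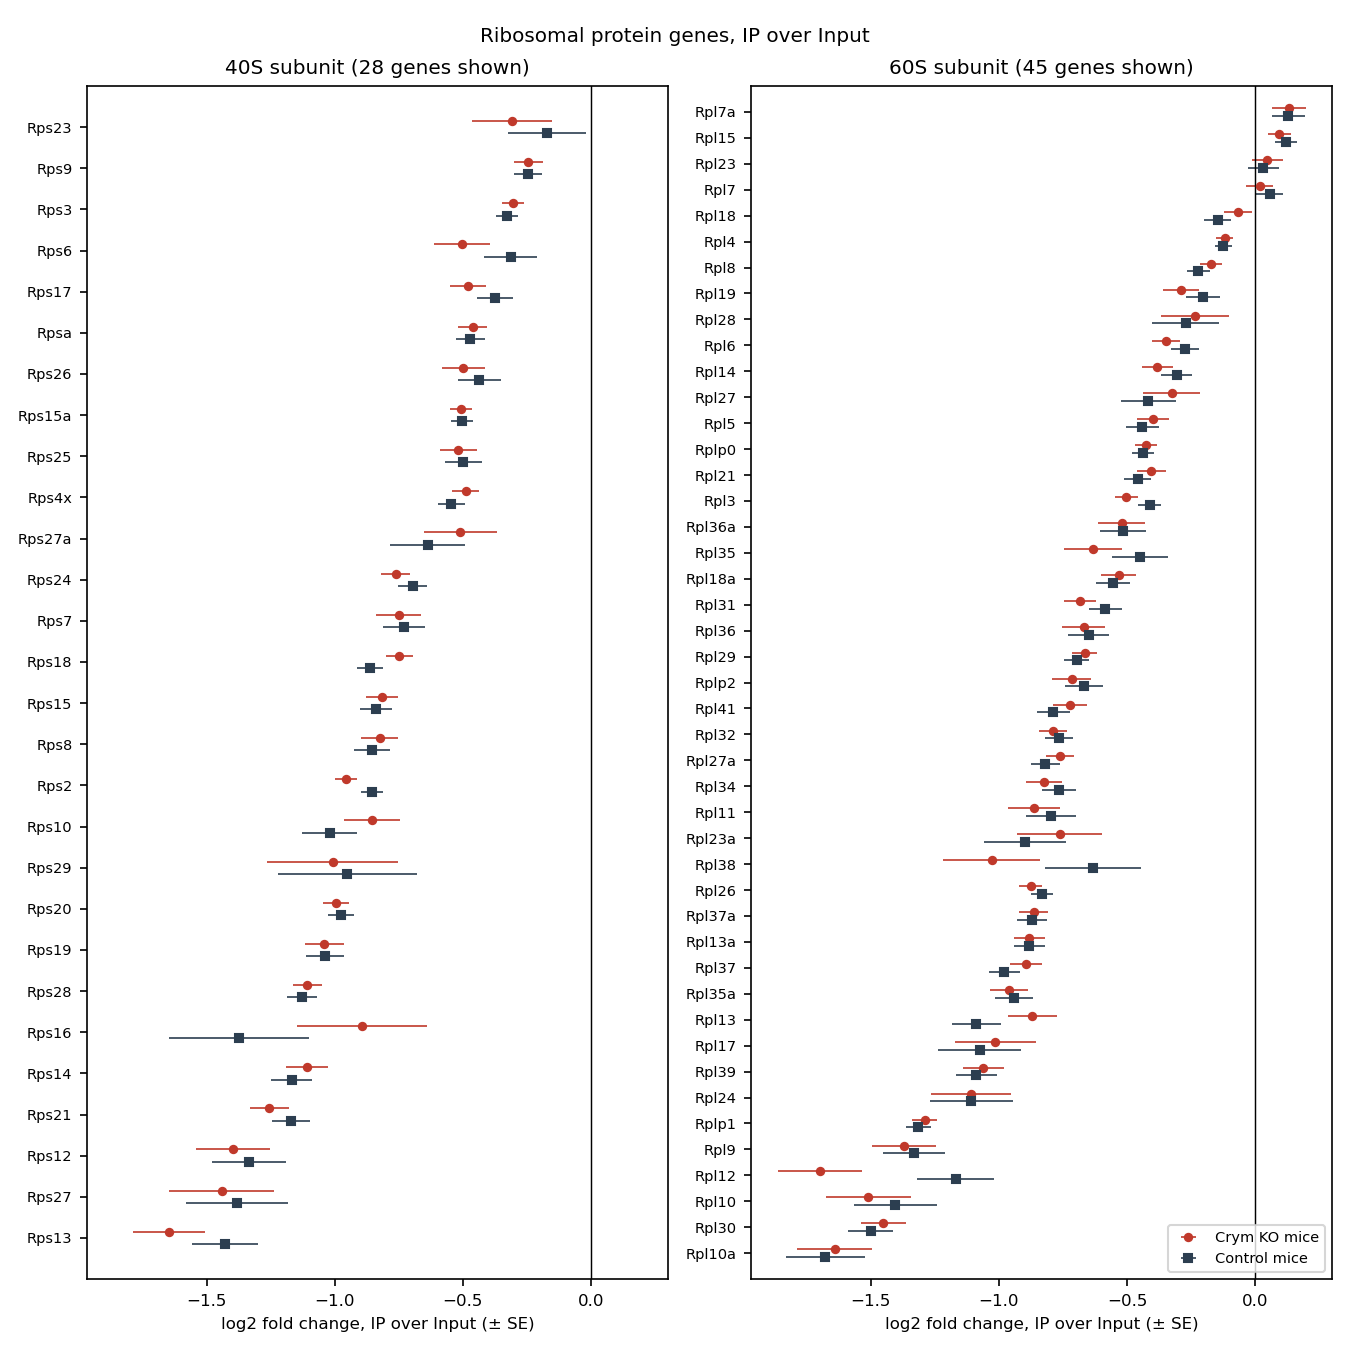
Log2 fold change of IP over Input for reported genes of the 40S (left) and 60S subunit (right), with the standard error of the limma fit, in Crym KO mice (red circles) and Control mice (dark squares). The vertical line marks 0; Rpl7a, Rpl15, Rpl23 and Rpl7 lie at or right of it, and the 40S genes shown lie left of it.

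The stalk proteins showed the size of the difference at high counts. Rplp1 had 78.8, 74.7, 73.8 and 80.5 CPM in Crym KO IP, against 202, 174, 197 and 181 CPM in Crym KO Input. It had 77.2, 73.1, 78.2 and 78.9 CPM in Control IP, against 188, 184, 193 and 200 CPM in Control Input. Every IP library held less than any Input library, and Rplp1 in IP was at 40.9% of its Input level in Crym KO mice (log2 fold change -1.29, SE 0.05, limma adjusted p = 2.41e-12) and 40.2% in Control mice (-1.31, SE 0.05, adjusted p = 2.6e-12). Its partner Rplp2, with a TOP start shown above, was lower by less, at 11.01 ± 1.11 CPM in Crym KO IP and 17.99 ± 1.44 CPM in Crym KO Input (-0.72), and 11.6 ± 0.766 CPM in Control IP and 18.4 ± 1.11 CPM in Control Input (-0.67). Rplp0, the protein that anchors both to the 60S subunit, had 68.2 ± 2.92 CPM in Crym KO IP and 91.5 ± 3.66 CPM in Crym KO Input (-0.43), and 71.1 ± 3.42 CPM in Control IP and 96.1 ± 2.33 CPM in Control Input (-0.44). Rplp1 was thus lower in IP by more than either of its partners in the same stalk, in both genotypes.

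Log2 fold changes below -1 in both genotypes were found for 16 genes. Besides Rplp1 they were Rpl9, Rpl10, Rpl10a, Rpl12, Rpl17, Rpl24, Rpl30, Rpl39, Rps12, Rps13, Rps14, Rps19, Rps21, Rps27 and Rps28. With counts of the pseudogenes that bear a gene's name added, 11 of the 16 stayed below -1 in both genotypes, and Rpl9, Rpl10a, Rpl17, Rps13 and Rps19 did not. Among the 11, however, Rpl24, Rps14, Rps21 and Rps28 have no pseudogene of their name. Nothing was added to their counts, so the sum is no check of these genes. Rpl10a, a protein of the L1 stalk near the site where tRNAs leave, was lowest in Control mice. It had 1.74, 1.30, 1.19 and 1.17 CPM in Crym KO IP, against 4.35, 3.79, 4.16 and 4.35 CPM in Crym KO Input (-1.64, SE 0.15), and 1.40, 1.26, 1.14 and 0.855 CPM in Control IP, against 3.63, 3.36, 3.51 and 4.40 CPM in Control Input (-1.68, SE 0.15). Only 12.3% of its windows were unique, and with its pseudogenes added it was at -0.18 in both genotypes, far from the lowest. Rpl12, at the base of the P stalk, was lowest in Crym KO mice, with 1.29, 1.24, 1.28 and 1.40 CPM in Crym KO IP and 5.21, 3.43, 4.73 and 3.78 CPM in Crym KO Input (-1.70, SE 0.17). In Control mice it had 2.13, 1.72, 1.46 and 2.08 CPM in IP and 3.88, 3.80, 4.06 and 4.62 CPM in Input (-1.17, SE 0.15). Groups did not overlap for either gene.

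Several of the other low values rested on few counts. Rps13 averaged 0.653 ± 0.0712 CPM in Crym KO IP and 2.06 ± 0.174 CPM in Crym KO Input (-1.65, or -0.72 with pseudogenes added), and 0.811 ± 0.0931 CPM in Control IP and 2.21 ± 0.193 CPM in Control Input (-1.43, or -0.81 with pseudogenes added). Rps27, a zinc-finger protein of the 40S subunit with the smallest unique share, had fold changes of -1.44 and -1.38. Rps16 had the lowest counts, with 0.468, 0.438, 0.379 and 0.298 CPM in Crym KO IP against 0.882, 0.606, 0.918 and 0.550 CPM in Crym KO Input (-0.89, SE 0.25). It had 0.386, 0.255, 0.281 and 0.224 CPM in Control IP against 0.488, 0.855, 0.826 and 0.847 CPM in Control Input (-1.37, SE 0.27, or -0.80 with pseudogenes added). Genes with more of their transcript unique could be as low: Rps21 (89.6% unique, -1.26 in Crym KO and -1.17 in Control mice), Rpl39, a small protein of the tunnel through which the nascent chain leaves (90.3%, -1.06 and -1.09), and Rpl30 (58.0%, -1.45 and -1.50). Exons of overlapping genes cover 24.8% of the merged exon length of Rpl30, which its unique share leaves out of account. Rps21 had 16.8, 15.1, 15.5 and 16.9 CPM in Crym KO IP, against 40.8, 36.8, 37.2 and 38.7 CPM in Crym KO Input, so that no library was near the other group. Control IP held 20.1, 15.97, 17.7 and 18.8 CPM and Control Input 38.4, 38.2, 39.9 and 46.7 CPM of it.

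At the other end, 4 genes of the 60S subunit were not lower in either genotype. Rpl7a had 20.5, 19.9, 19.2 and 21.6 CPM in Crym KO IP, against 19.9, 17.2, 19.4 and 17.4 CPM in Crym KO Input (0.13, SE 0.06, limma adjusted p = 0.0742). In Control mice it had 20.3, 18.3, 20.4 and 21.8 CPM in IP, against 18.6, 19.8, 17.8 and 17.6 CPM in Input (0.13, SE 0.06, adjusted p = 0.0759). The libraries of the 2 fractions overlapped in both genotypes. Only 21.7% of the windows of Rpl7a were unique, and 79 other genes shared some of them. With its pseudogenes added Rpl7a was at 0.12 in both genotypes. Rpl15, whose mutations in humans are among those found in the inherited anaemia of Diamond and Blackfan, was the one gene called higher. It had 48.7, 47.8, 46.5 and 44.4 CPM in Control IP, against 42.9, 45.1, 42.0 and 42.4 CPM in Control Input (0.12, SE 0.04, adjusted p = 0.0186). In Crym KO mice it had 47.9, 46.2, 47.6 and 44.3 CPM in IP and 42.5, 44.8, 45.7 and 41.0 CPM in Input (0.09, SE 0.04, adjusted p = 0.0592). It was higher in IP in all 8 mice, but the groups overlapped, and whether it lay above 0 rested on the scaling of the libraries. Upper quartile and library size scaling put it at -0.039 and -0.071 in Control mice and lowered the median of all genes there to -0.18 and -0.22, so that its distance above that median, 0.145, was the same under all 3. Rpl23 (0.05 in Crym KO and 0.03 in Control mice) and Rpl7 (0.02 and 0.06) did not pass. Of the rest, Rpl28 (-0.24 and -0.27) and Rps23 (-0.31 and -0.17) passed in neither genotype, at under 3 CPM in every group mean. With pseudogenes added both passed as lower in both genotypes, Rpl28 at -0.33 in Crym KO and -0.41 in Control mice and Rps23 at -0.32 and -0.25. The reverse held for Rpl19, called lower in both genotypes (-0.29 and -0.20), which did not pass in either with pseudogenes added (-0.047 and -0.024). Rpl18 (-0.07 and -0.15) passed in Control mice alone, and its difference between genotypes was not called. Its call was lost without Control IP replicate 2, 3 or 4 or Control Input replicate 3 or 4 (limma adjusted p = 0.0542 to 0.0689) and without a filter on low counts (0.110).

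The most abundant genes were not alike: Rplp1 (-1.29 in Crym KO and -1.31 in Control mice) and Rps15 (-0.82 and -0.84) were clearly lower in IP. For others the difference was small but larger than the spread. Rpl4, a 60S protein that reaches into the exit tunnel, had 248, 259, 258 and 252 CPM in Crym KO IP, against 281, 265, 286 and 273 CPM in Crym KO Input (-0.12, SE 0.03, limma adjusted p = 0.00444). It had 256, 264, 261 and 260 CPM in Control IP, against 281, 298, 279 and 278 CPM in Control Input (-0.12, SE 0.03, adjusted p = 0.00287). All IP libraries lay under all Input libraries of their genotype. Rpl8 followed with -0.17 and -0.22, and Rps9 with -0.24 and -0.25. Rps3, at the mRNA entry channel of the 40S subunit and with 99.8% of its windows unique, averaged 169 ± 7.15 CPM in Crym KO IP and 208 ± 6.83 CPM in Crym KO Input (-0.30), and 172 ± 8.89 CPM in Control IP and 215 ± 9.004 CPM in Control Input (-0.33).

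**Figure D3:**
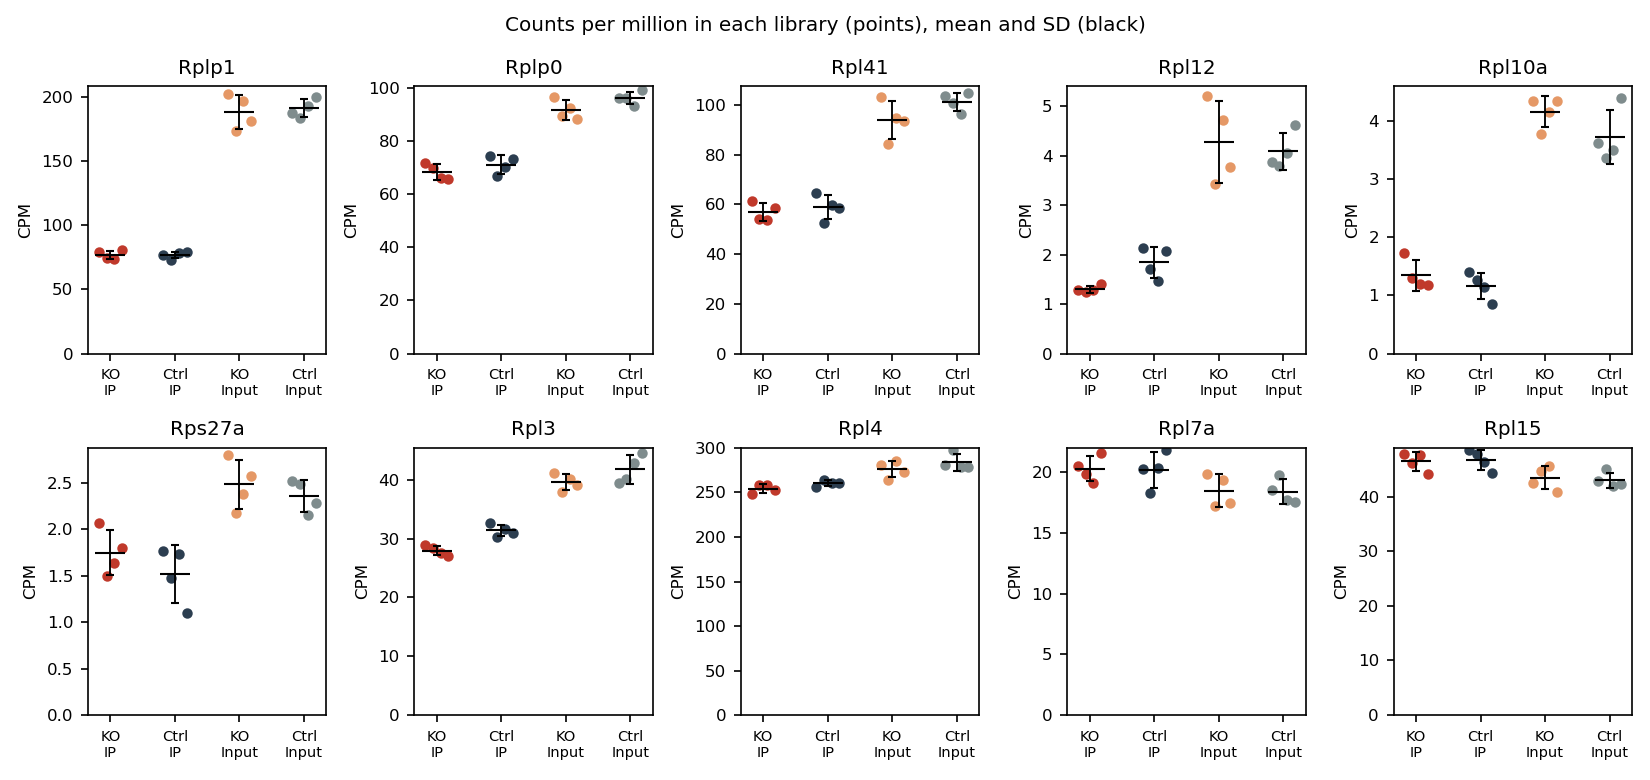
CPM of 10 ribosomal protein genes in each of the 16 libraries (points), with the mean and SD of each group of 4 in black; the groups are, from left to right, Crym KO IP, Control IP, Crym KO Input and Control Input. Rplp1, Rpl41, Rpl12 and Rpl10a are lower in both IP groups than in both Input groups without overlap, whereas Rpl7a and Rpl15 are near-level across the 4.

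Genes with other known roles fell between these ends. Rpl3, the 60S protein closest to the peptidyl transferase centre, had fold changes of -0.50 in Crym KO and -0.41 in Control mice, and Rpl5, which binds 5S ribosomal RNA, -0.40 and -0.44. Rps2, at the mRNA entry site, averaged 23.0 ± 0.876 CPM in Crym KO IP and 44.5 ± 0.971 CPM in Crym KO Input (-0.96), and 23.7 ± 1.19 CPM in Control IP and 42.8 ± 1.604 CPM in Control Input (-0.85). Rps6, the substrate of the S6 kinases, had -0.50 in Crym KO and -0.31 in Control mice, at 3.53 ± 0.372 CPM in Crym KO IP and 4.02 ± 0.416 CPM in Control IP. With pseudogenes added Rps6 was at -0.28 in Crym KO and -0.29 in Control mice. Rpsa, which is also known as the laminin receptor precursor, had -0.46 and -0.47, and the X-linked Rps4x -0.49 and -0.54. Rps19, in humans the gene most often mutated in Diamond-Blackfan anaemia, had -1.04 in both genotypes. Rps27a, made as a fusion with ubiquitin, had -0.51 and -0.64 at 1.75 ± 0.245 CPM in Crym KO IP and 1.52 ± 0.309 CPM in Control IP. Rpl41, which encodes the shortest protein of the set, had -0.72 and -0.79, and Rpl38, known in mice for a skeletal patterning phenotype, -1.03 and -0.63 at about 1 CPM. With pseudogenes added Rpl38 was at -0.70 in both genotypes. Each of the genes in this paragraph passed the threshold in both genotypes.

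Properties that did not enter the choice of genes were set beside the fold changes, as descriptions across genes of the same libraries. Genes with longer coding sequences were less low (r = 0.36 in both genotypes; rho = 0.42 in Crym KO and 0.38 in Control mice, n = 75). Those with more counts in Control Input were also less low (r = 0.38 and 0.36), a level that itself enters the fold change of Control mice. Coding length and this level went together only weakly (r = 0.27, rho = 0.28), and their parts were not tested separately. The share of unique windows went with the fold change more weakly (r = 0.26 and 0.24). Of the 45 genes with at least 50% unique windows, 41 were lower in each genotype (median -0.72 in Crym KO and -0.67 in Control mice), and of the other 30, 27 and 28 (-0.75 and -0.76). The 29 hosts of small nucleolar RNAs in their introns had medians of -0.79 and -0.85 and the 46 other genes -0.68 and -0.64. The 23 genes with a pyrimidine start had medians of -0.72 and -0.63 and the 32 with an annotated start but no such run -0.84 and -0.81. The starts printed above belong to genes at 0.13 and 0.13 (Rpl7a) as well as at -1.70 and -1.17 (Rpl12), in Crym KO and Control mice.

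Other lists of the translation machinery and of mitochondria are read against all genes, of which 36.2% in Crym KO and 36.7% in Control mice were higher and 37.9% and 38.5% lower. Of the 4 ribosomal protein genes with other names, 3 were lower in both genotypes, among them Rps3a1 (-0.76 in Crym KO and -0.67 in Control mice) and Rack1, a scaffold on the 40S subunit (-0.23 and -0.29). Of 10 paralogues tested, 6 were higher in each genotype, among them Rps27l (1.43 and 1.47) and Rps4l (0.65 and 0.71), and 3 in Crym KO and 2 in Control mice were lower, among them Rpl22l1 (-1.40 and -1.39) and Rps27rt (-1.06 and -1.03). Of 38 initiation factors, 29 in Crym KO and 30 in Control mice were higher and 3 were lower (median 0.28 and 0.26), led by the eIF3 subunit gene Eif3c (0.79 and 0.81) and the scaffold gene Eif4g1 (0.81 and 0.77). Of 13 elongation and termination factors, 7 were higher and 5 lower in each genotype, and the share that was lower was close to that of all genes. Eef2, the factor that moves the ribosome along and whose mRNA is known to carry a TOP start, was higher (0.39 and 0.34). Among 20 other mRNAs known for such a start, 10 were lower in each genotype, 5 were higher in Crym KO and 6 in Control mice (median -0.19 and -0.15), with Gas5, a noncoding host of small nucleolar RNAs, at -1.11 and -1.03 and the cytoskeletal Vim at 2.31 and 2.19.

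Ribosome biogenesis factors were mostly higher in IP (39 and 40 of 51, with 4 lower, median 0.30 in Crym KO and 0.34 in Control mice), such as Nolc1 (0.79 in both) and Sbds (0.87 and 0.89). So were 16 and 17 of 30 genes of the mTORC1 pathway (median 0.18 and 0.19, with 5 and 7 lower), such as Sesn2 (1.43 and 1.41), and 10 of 16 genes of ribosome rescue and ribosomal protein stress in each (0.31 and 0.33, with 1 and 2 lower). The mitochondrial ribosomal protein genes, whose products build the other ribosome of the cell, were higher for 51 and 49 of 77 and lower for 9 and 8 (median 0.22 and 0.24). Nuclear genes of oxidative phosphorylation were higher for 57 and 53 of 82 and lower for 8 and 7 (median 0.33 and 0.28), with Sdha at 0.92 and 0.91. Per kb, the mitochondrial ribosomal protein genes had a median of 8.85 CPM in Crym KO IP, 9.09 in Control IP, 7.63 in Crym KO Input and 7.94 in Control Input, which was above the cytosolic ones in IP and below them in Input. Unique windows were determined for the cytosolic genes alone, so this order describes countable reads and need not be that of the mRNAs. Whether the cell types depleted by the pull-down carried part of the difference of the cytosolic genes was not tested.

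**Figure D4:**
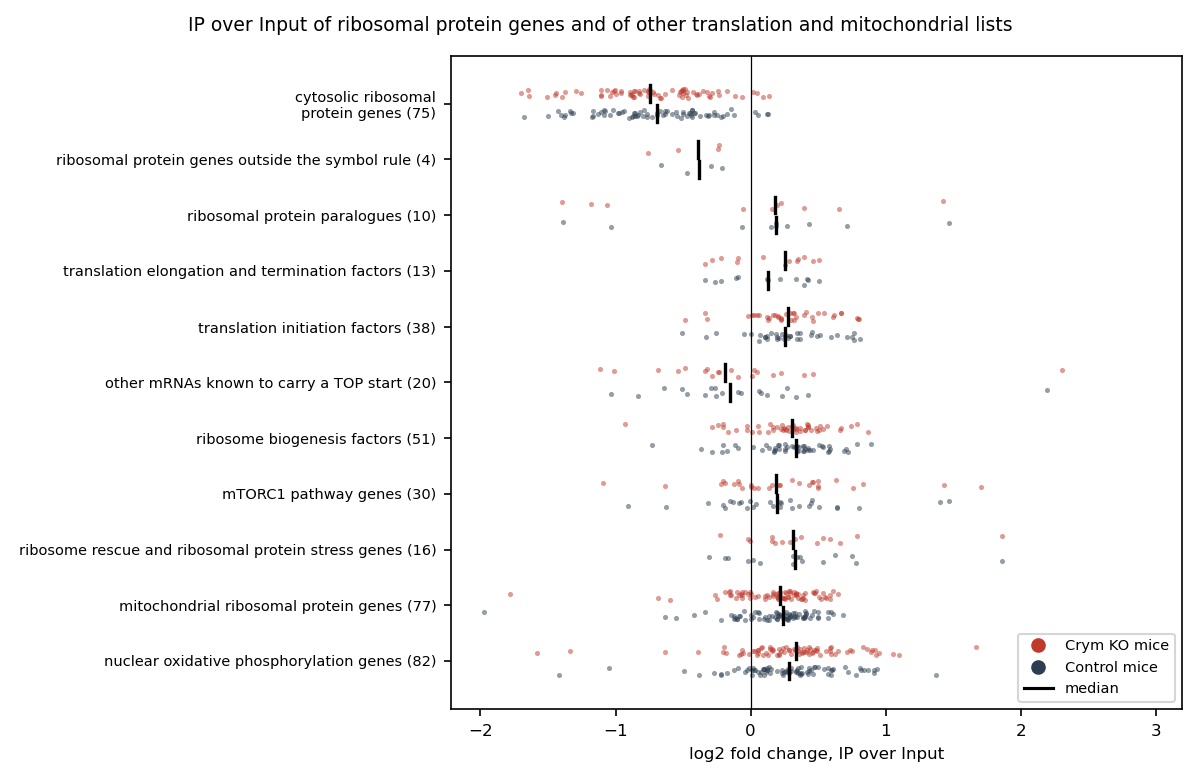
Log2 fold change of IP over Input of each gene (points) in the 75 cytosolic ribosomal protein genes and in 10 other lists, with the number of genes tested in brackets; red points are Crym KO mice, dark points Control mice, and black bars medians. The cytosolic genes have medians of -0.75 and -0.70, whereas those of initiation factors, biogenesis factors and mitochondrial ribosomal protein genes lie between 0.22 and 0.34.

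The second comparison asked whether the loss of Crym changed these mRNAs on astrocyte ribosomes. None of the 75 was called between Crym KO IP and Control IP (limma, smallest adjusted p = 0.460), where 0.0194% of all genes were higher and 0.0145% lower. At an unadjusted p under 0.05 there were 3, or 4.00% of them against 7.67% of all genes, and edgeR and DESeq2 called none of the 75. The median was -0.044, against 0.0039 over all genes, with 51 of 75 values below 0 (48.6% of all genes were below 0). Rpl3 had the smallest p, with 28.9, 28.4, 27.6 and 27.1 CPM in Crym KO IP, against 32.6, 30.4, 31.7 and 30.9 CPM in Control IP (-0.17, SE 0.05). Rpl34 had 4.39, 4.54, 4.24 and 4.62 CPM in Crym KO IP, against 5.66, 4.797, 5.25 and 5.37 CPM in Control IP (-0.24, SE 0.07, adjusted p = 0.478). The third was Rpl12 (-0.48, SE 0.18, adjusted p = 0.570), with the values given above. For these 3, and for Rpl19 (-0.14), the groups did not overlap, which held for 2.73% of all genes. The exact two-sided permutation test over the 4 against 4 mice, run on the 10 genes with the smallest limma p and thus on genes chosen for this difference, gave each of the 4 p = 0.0286, the smallest that 70 arrangements allow. The next by p included Rps21 (-0.17), Rps13 (-0.32), Rpl36 (-0.17), Rps6 (-0.19) and Rpl26 (-0.08), all with overlap. Over the alternatives in processing, Rps13 ran from -0.39 to -0.020 and Rps6 from -0.25 to -0.019. Markers of oligodendrocytes, which are not the tagged cells, had a median of -0.35 in the same comparison (9 of 12 at an unadjusted p under 0.05, none adjusted), with summed levels of 3951 to 6184 CPM in Crym KO IP and 5211 to 7801 CPM in Control IP. Astrocyte markers had a median of 0.12 there (2 of 20 at an unadjusted p under 0.05, none adjusted), and the bait Rpl22 was higher, as given above. What part any of these had in the values of the 75 genes was not tested.

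In Input none of the 75 passed either (limma, smallest adjusted p = 0.585; 0.00484% of all genes were higher and 0.00484% lower). At an unadjusted p under 0.05 there were 4, or 5.33% against 7.07% of all genes, and edgeR and DESeq2 called none. The median was -0.035, against -0.00045 over all genes, and 48 of 75 values were below 0 (50.2% of all genes were below 0). Rpl37 had 6.92, 7.06, 7.04 and 7.003 CPM in Crym KO Input, against 8.06, 8.07, 7.86 and 7.66 CPM in Control Input (-0.17, SE 0.05, exact two-sided permutation p = 0.0286, chosen in the same way). Rpl34, as in IP, was below every Control library, with 8.11, 7.67, 8.18 and 7.53 CPM in Crym KO Input against 8.59, 8.97, 8.62 and 9.57 CPM in Control Input (-0.18, SE 0.06). Rpl18 (-0.14) and Rps4x (-0.08) did not overlap between genotypes either. In all, 5 of the 75 did not, where this held for 5.67% of all genes. Rps18 (-0.12), Rps14 (-0.16), Rpl36 (-0.15), Rps10 (-0.18), Rpl31 (0.11) and Rpl29 (-0.08) did. Markers of medium spiny neurons had a median of 0.23 between the genotypes in Input (6 of 12 at an unadjusted p under 0.05, none adjusted). Astrocyte markers had a median of -0.037 there (2 of 20, none adjusted). What part these had in the values of the 75 genes was not tested.

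The difference of the Crym KO effect between IP and Input was called for none of the 75 (smallest limma adjusted p = 1.00, background 0%; edgeR and DESeq2 also called none). Rpl12 alone had an unadjusted p under 0.05 (3.41% of all genes did), with -0.53 (SE 0.22): its value was -0.48 in IP and 0.053 in Input. The median over the 75 was -0.0015, against 0.0044 over all genes, and 39 values were below 0 (48.5% of all genes were below 0). By library, the median of the 75 genes lay from -0.092 to 0.0095 around the mean of Control IP in the 4 Crym KO IP libraries, and from -0.047 to 0.067 in the 4 Control IP libraries, in log2(CPM + 0.1), so that the genotypes overlapped.

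**Figure D5:**
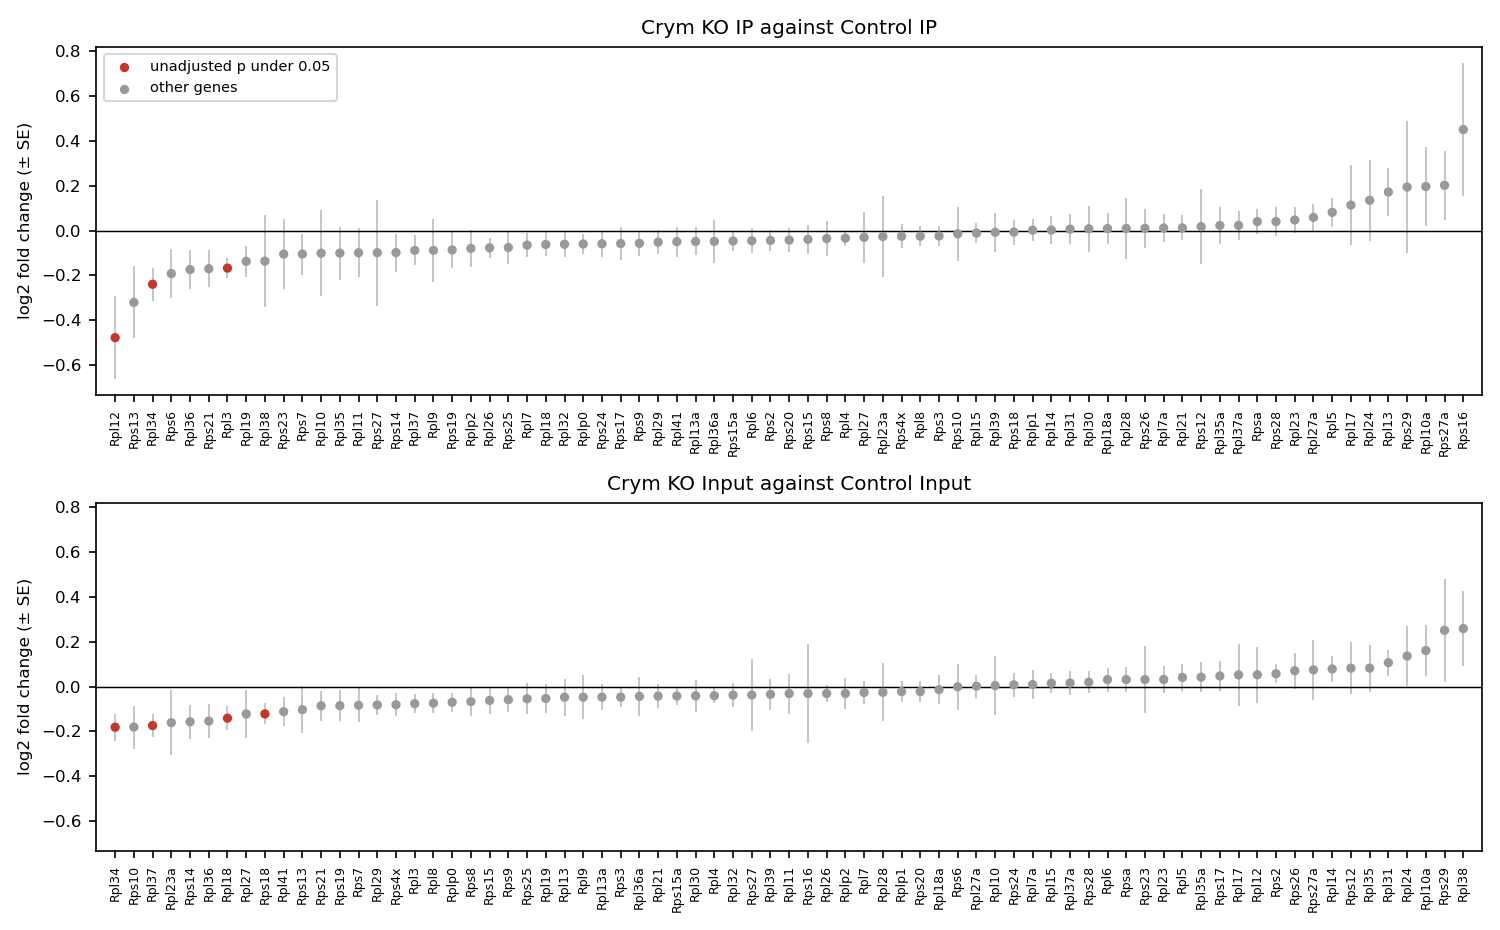
Log2 fold change of Crym KO against Control for the reported genes in IP (top) and in Input (bottom), ordered within each panel, with the standard error of the limma fit; red points have an unadjusted p under 0.05 and none passed after adjustment. Most values lie between -0.2 and 0.2, and the wide bars at both ends belong to genes with few counts, such as Rps16 and Rps29.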

How the data were processed

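The deposited table holds whole-number counts of reads for 48795 Ensembl identifiers in 16 libraries. Per the study's methods, ribosomal RNA was depleted, 69-base paired reads were sequenced in one pool and aligned with STAR to mm10, and HTSeq counted uniquely mapped reads. The submitters' processing notes name bcl2fastq 2.17. The gene model named in the methods is RefSeq, although identifiers in the table are those of Ensembl, and whether counting used strand is not given in the sources used here. RNA samples were kept above a set integrity number. The study lists ComBat among its RNA-seq software but names no batch of these libraries, and no batch term was used here.

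Symbols, biotypes and exon lengths came from GENCODE annotation of GRCm38. Identifiers without annotation there (360) held 0.0765% of counts. Counts were fitted with limma-voom (limma 3.58.1, edgeR 4.0.16, R 4.3.3) over all 16 libraries with 4 group means, TMM scaling and the edgeR expression filter, with Benjamini-Hochberg adjustment across 20645 genes (threshold 0.05). CPM are TMM-scaled, and 0.1 CPM was added before logs taken per mouse. Exact permutation tests covered the 10 genes with the smallest p in each genotype comparison. DESeq2 1.42.0, edgeR, other scalings and filters, pseudogene sums and omission of each library were alternatives, and the pipeline was tested on simulated data. With 4 mice per group, p-values measure the spread between libraries of different mice within the groups. For IP over Input the main fit did not use the pairing of libraries by mouse. A replicate block by mouse was among the alternatives.

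The members and lists were chosen with earlier results of these data known. Named were 15 fixed genes covering both subunits; in IP over Input, the 10 highest and lowest called genes without overlap and those near 0; by genotype, the 10 with the smallest p; by level, the 5 highest and lowest; and at most 4 genes per other list. Values of a few genes these rules cover are not reported here.

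The labels give a mouse identifier, by which same-numbered IP and Input libraries of a genotype share a mouse. Deviations from the group means correlated at 0.0728 to 0.268 within Crym KO mice and 0.231 to 0.463 within Control mice. Same-numbered mice of different genotype were different animals, with 0.163 to 0.312 in IP and 0.0646 to 0.195 in Input.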

Additional observations from a re-analysis of the deposited data

Results flagged for a closer look

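Of 204 groups of 4 libraries examined (50 named genes and the summed share, each in 4 groups), 10 held a library whose gap to the nearest other passed the 95% limit of Dixon's test, which chance alone passes in about 1 of 20 groups. In Control IP, replicate 1 had the highest summed share of the 75 genes, 0.1997% against 0.186% to 0.187% in the others, and the highest Rpl18, 14.5 CPM against 12.9 to 13.0 CPM. Also in Control IP, replicate 4 held 15.9 CPM of Rpl29 (others 17.9 to 18.2 CPM) and replicate 2 held 19.5 CPM of Rpl6 (others 21.6 to 21.9 CPM). In Crym KO IP, replicate 1 held 2.11 CPM of Rpl28 (others 1.73 to 1.79 CPM). In Crym KO Input, replicate 2 was low for Rpl6 (24.4 CPM, others 26.6 to 26.8 CPM) and for Rps13 (1.80 CPM, others 2.14 to 2.15 CPM). In Control Input, Rpl28 was 2.63 CPM in replicate 4 (others 2.03 to 2.12 CPM), Rpl4 was 298 CPM in replicate 2 (others 278 to 281 CPM) and Rps16 was 0.488 CPM in replicate 1 (others 0.826 to 0.855 CPM).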

How the results depend on the processing

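The number of genes lower in IP stayed between 67 and 73 over 29 alternatives in each genotype. All 75 were tested in these, except that a filter of at least 1 CPM in 4 libraries kept 73. The number higher was 0 in Crym KO mice and 1 in Control mice as reported. It was 2 and 2 without a filter on low counts, 1 and 2 with sample quality weights, and 0 in Control mice with upper quartile scaling, library size scaling, a filter of at least 1 CPM in 4 libraries or only the 8 libraries of that comparison. With a replicate block by mouse it was 1 in Crym KO mice, namely Rpl15, and the replicate block left 68 and 69 genes lower and changed no other call among the counts of the 75. Leaving out 1 library at a time gave 0 to 2 higher in each genotype, 67 to 68 lower in Crym KO and 68 to 69 lower in Control mice. The median of the 75 was -0.91 in Crym KO and -0.86 in Control mice with upper quartile scaling, and -0.94 and -0.89 with library size scaling. These scalings moved the median of all genes to between -0.18 and -0.22, and relative to it the 75 stayed at -0.73 in Crym KO and -0.67 in Control mice. With pseudogene counts added the median in Crym KO mice was -0.64, and Rpl9 (-0.50 in Crym KO and -0.51 in Control mice), Rpl10a (-0.18 and -0.18), Rpl17 (-0.69 and -0.56) and Rps13 (-0.72 and -0.81) moved most among the genes below -1 in both genotypes. Without both libraries of Crym KO mouse 3, an alternative chosen after seeing the data, it was -0.68 with 1 gene higher. Leaving out single libraries gave medians of -0.77 to -0.71 in Crym KO and -0.72 to -0.67 in Control mice.

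The genotype comparisons called none of the genes tested under any alternative, with medians of -0.064 to -0.022 in IP and -0.055 to -0.011 in Input. Leaving out single libraries gave medians of -0.028 to 0.024 for the difference of the effects. The summed share with pseudogenes was 0.267% in Crym KO IP, 0.279% in Control IP, 0.426% in Crym KO Input and 0.444% in Control Input. In Input it was 0.320% in Crym KO and 0.333% in Control mice over protein-coding counts, and 0.316% and 0.328% without the mitochondrial genome.

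Of 2926 values of single genes under alternatives, 2850 kept their direction and side of the threshold, 14 lost and 37 gained a call, and 25 changed sign, all of them of genes near 0. With upper quartile scaling Rpl15 was -0.068, Rpl23 -0.12, Rpl7 -0.14 and Rpl7a -0.030 in Crym KO mice, and -0.039, -0.13, -0.10 and -0.030 in Control mice. With library size scaling they were -0.096, -0.14, -0.17 and -0.059 in Crym KO mice, and -0.071, -0.16, -0.13 and -0.061 in Control mice. With at least 1 CPM in 4 libraries Rpl23 was -0.024 and Rpl7 -0.052 in Crym KO mice, and -0.038 and -0.013 in Control mice. In Crym KO mice Rpl7 was also -0.0027 with RLE scaling, -0.0018 with DESeq2, -0.012 without Crym KO IP replicate 1 and -0.0081 without Crym KO Input replicate 2, which gave -0.013 for Rpl23. Over all single libraries left out, Rpl23 ran from -0.013 to 0.10 and Rpl7 from -0.012 to 0.053 in Crym KO mice. Depth limits genes under about 1 CPM, such as Rps16, Rps13, Rps27 and Rpl38, where each library held few counts.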
